A study of Mus musculus with 6 samples.

Results

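Ligands of the tumour necrosis factor (TNF) superfamily and their receptors were examined in mouse bone marrow-derived macrophages. The members were 10 genes picked by symbol from the 34745 genes of the deposited count table, and all 10 passed the filter on low counts, among 13815 genes tested. They comprised 5 ligands (Tnf, Ltb, Tnfsf9, Tnfsf12 and Tnfsf13b) and 5 receptors (Tnfrsf1a, Tnfrsf1b, Tnfrsf11a, Ltbr and Fas). The study compared 3 libraries of wild-type (WT) macrophages pretreated with a KAT8 inhibitor with 3 libraries of WT macrophages pretreated with the solvent DMSO. Cells of both groups had been grown from bone marrow with M-CSF (20 ng/ml), and both received R848 at 100 ng/ml over 6 h. Resiquimod, as R848 is also called, is a small-molecule agonist of endosomal Toll-like receptors, and KAT8 (MOF) is a lysine acetyltransferase that acts on histone H4. The labels do not name the inhibitor, its dose or the length of pretreatment, and say nothing of the animals' age, sex or strain, and no unstimulated cells were analysed here. Every difference is therefore one between stimulated cells.

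Most TNF superfamily ligands are trimeric membrane proteins, some of which are cut from the cell surface. Their receptors act through adaptors of the TRAF family or, where they carry a death domain, through adaptors such as TRADD and FADD. In macrophages, Toll-like receptor signalling through NF-kB rapidly induces Tnf, and its mRNA is short-lived because of an AU-rich element in the 3' untranslated region. RANK, the product of Tnfrsf11a, drives the fusion of macrophage precursors into osteoclasts when it meets its ligand.

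Library totals were 23037820 to 25089320 counts with the inhibitor and 18441352 to 24429778 with DMSO. Levels are counts scaled to library size (CPM) after TMM normalization, and a count of 0 in a library allowed up to 0.116 to 0.166 CPM, covering counting error only. Genes were called at an adjusted p under 0.05 in edgeR's quasi-likelihood test, and fold changes are inhibitor over DMSO. Of all tested genes 51.5% were called, 24.9% higher and 26.5% lower (3446 and 3667 genes, or 4888 and 2842 when scaled by library totals alone). All 8 macrophage markers were detected, from Fcgr1 (1.76 ± 0.277 CPM with the inhibitor and 3.46 ± 0.242 CPM with DMSO) to Lyz2 (4190 ± 37.1 CPM with the inhibitor and 8596 ± 632 CPM with DMSO; SD, n = 3 each). Of the 8, 6 were lower with the inhibitor and none higher. The summed CPM of the 8 was 7562 to 7640 with the inhibitor and 11861 to 13535 with DMSO, a difference mostly due to Lyz2. The other 2 were not called: Csf1r (463 ± 4.9 and 474 ± 30.2 CPM, inhibitor and DMSO) and Cd68 (1673 ± 35.6 and 1504 ± 178 CPM; SD, n = 3 each). All 5 erythroid markers were at 0. Summed CPM of 7 T cell markers was 0.125 to 0.424 with the inhibitor and 0.345 to 0.497 with DMSO. That of 8 dendritic cell markers was 467 to 495 with the inhibitor and 806 to 887 with DMSO, mostly from Itgax. For 8 markers of neutrophils and granulocyte precursors it was 2.08 to 2.93 with the inhibitor and 6.41 to 7.16 with DMSO. Stromal markers were present throughout: the summed CPM of 9 was 2019 to 2153 with the inhibitor and 4520 to 5328 with DMSO, and 7 of the 9 were lower with the inhibitor. The other 2, Lum and Pdgfra, were not called, and Pdgfra had 442 ± 20.5 CPM with the inhibitor and 418 ± 30.3 CPM with DMSO (SD, n = 3 each). In such bulk samples, fewer cells of a type and less RNA per cell cannot be told apart.

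The sequences below belong to the most abundant ligand and receptor and to both receptors whose mRNA changed. They are the 250 bases before the RefSeq start site (GRCm38.p6), printed 5′ to 3′ on the gene's strand, with motif matches in capitals. Promoters were found for 8 of the 10 members in the RefSeq table.
Tnf promoter, chr17:35202008-35202257, minus strand: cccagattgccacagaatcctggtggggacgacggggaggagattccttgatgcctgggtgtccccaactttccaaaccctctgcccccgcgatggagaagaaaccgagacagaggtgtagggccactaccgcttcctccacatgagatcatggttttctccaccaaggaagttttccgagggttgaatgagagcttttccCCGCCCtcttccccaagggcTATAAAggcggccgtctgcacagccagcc
Tnfrsf1b promoter, chr4:145246871-145247120, minus strand: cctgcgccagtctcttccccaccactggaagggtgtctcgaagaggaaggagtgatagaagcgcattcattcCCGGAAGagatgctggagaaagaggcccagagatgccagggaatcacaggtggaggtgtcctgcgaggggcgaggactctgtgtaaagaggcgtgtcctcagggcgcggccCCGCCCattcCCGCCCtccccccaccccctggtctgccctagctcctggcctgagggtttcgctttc
Tnfrsf11a promoter, chr1:105780473-105780722, plus strand: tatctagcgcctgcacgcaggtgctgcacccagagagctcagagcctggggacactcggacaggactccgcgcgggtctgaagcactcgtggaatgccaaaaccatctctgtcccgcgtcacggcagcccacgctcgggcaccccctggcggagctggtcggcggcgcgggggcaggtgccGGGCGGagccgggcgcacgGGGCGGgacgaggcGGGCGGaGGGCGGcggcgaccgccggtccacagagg
Fas promoter, chr19:34290409-34290658, plus strand: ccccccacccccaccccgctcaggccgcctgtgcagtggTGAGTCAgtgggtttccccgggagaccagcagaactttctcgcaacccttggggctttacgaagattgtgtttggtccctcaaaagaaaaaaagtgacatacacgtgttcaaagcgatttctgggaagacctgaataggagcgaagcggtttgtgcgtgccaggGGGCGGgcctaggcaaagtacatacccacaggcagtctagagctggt

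In the Tnf promoter the capitals mark a TATA box (TATAAA) at -29 to -24 and a GC box (GGGCGG, here on the opposite strand) at -49 to -44, counted from the start site. Tnfrsf1b holds 2 GC boxes and an ETS motif (CCGGAAG), and Tnfrsf11a holds 4 GC boxes within 69 bases of its start. The Fas window holds an AP-1 motif (TGANTCA) at -211 to -205 and 1 GC box. Among 32851 promoter windows of this length, 7.59% hold the TATA box, 32.7% the GC box, 6.75% the AP-1 motif and 6.91% the ETS motif. All motifs but the TATA box were searched on both strands, and none of the printed matches overlap each other. A CRE (TGACGTCA, 1.55% of windows), an antioxidant response motif (TGACNNNGC, 10.2%) and the kappa-B consensus of NF-kB (3.9%) gave no match in these 4 windows. Tnfrsf11a, which rose, and Fas, which fell, thus share the GC box, as does Tnfrsf1b, which was not called. Such matches describe letters in a window and not sites that were measured.

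For Tnf, the stretch that controls mRNA decay is shown as well, because 12 genes that act on Tnf mRNA or its transcription are described with it. The 30 bases lie at positions 435 to 464 of the 764-base 3' untranslated region of Tnf-201 (GENCODE M21), in DNA letters, and the capitals mark 4 overlapping copies of the nonamer TTATTTATT.
Tnf AU-rich element: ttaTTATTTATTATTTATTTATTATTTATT

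The Tnf 3' untranslated region holds 5 such nonamers in all, and 42 of 21022 genes hold at least as many. Of the other members Tnfsf13b holds 1, and the nonamer occurs in 7.66% of genes.

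The ligand genes moved in both directions. Of 5 ligands, Tnf and Tnfsf9 fell, Tnfsf12 rose, and Ltb and Tnfsf13b did not pass the test (3 of 5 called, against 51.5% of all tested genes). Of 5 receptors Fas fell, Tnfrsf11a rose, and Tnfrsf1a, Tnfrsf1b and Ltbr did not pass. Together 5 of 10 members were called, a share near that of all tested genes, and the groups did not overlap for the same 5, against 60.6% of all tested genes. Over the 10 members the log2 fold change had a median of -0.04 and its absolute value a median of 0.44, beside 0.01 and 0.30 for all tested genes.

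**Figure D1:**
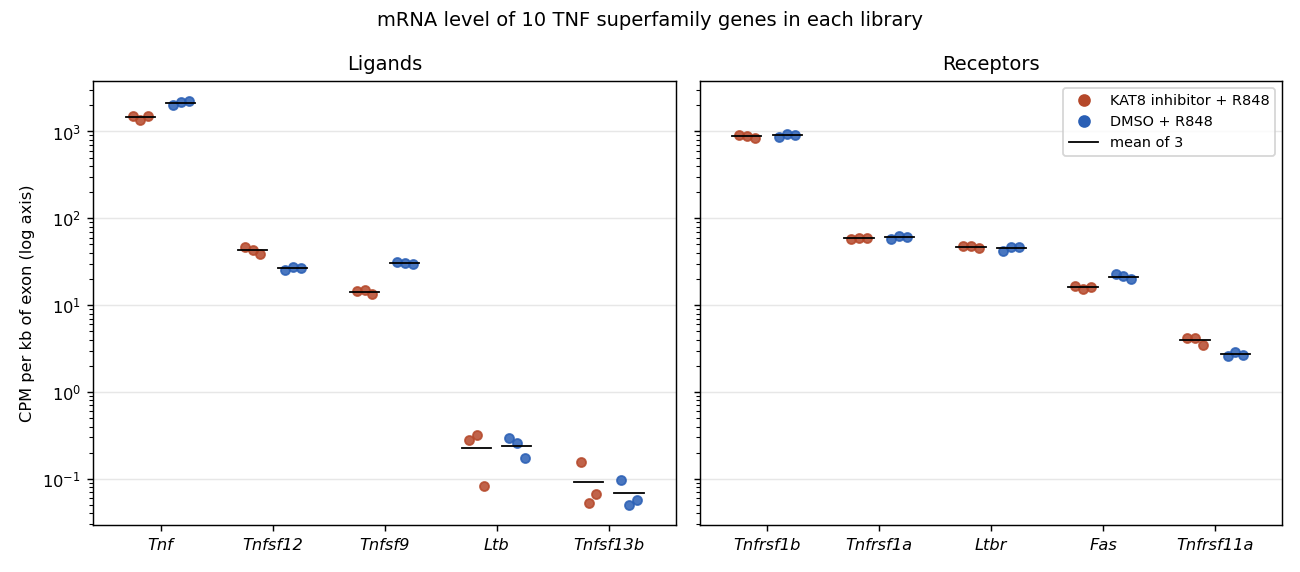
mRNA level of each member in each library, as CPM per kb of exon on a log axis, with ligands on the left and receptors on the right; points are libraries and lines the mean of 3. Tnf and Tnfrsf1b lie far above the other members, and the inhibitor and DMSO points do not overlap for Tnf, Tnfsf12, Tnfsf9, Fas and Tnfrsf11a.

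Tnf (ENSMUSG00000024401), the founding cytokine of the family, lies on the minus strand of chromosome 17 at 35199381 to 35202007 in mm10. Its level was 2489, 2251 and 2476 CPM with the inhibitor, against 3308, 3541 and 3658 CPM with DMSO. All 3 inhibitor libraries were below all 3 DMSO libraries. Tnf fell by 0.54 on the log2 scale (SE 0.059, 95% interval -0.68 to -0.41, adjusted p = 0.000137 in edgeR's quasi-likelihood test), a 1.46-fold difference. Per kb of exon its mean over the 6 libraries of both groups was 1802 CPM, rank 18 of the 13815 tested genes.

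Tnfsf9 (ENSMUSG00000035678), which encodes the 4-1BB ligand that costimulates T cells, also lies on chromosome 17 (plus strand, 57105325 to 57107757). Levels of Tnfsf9 were 18.5, 19.1 and 17.6 CPM with the inhibitor and 41.0, 39.7 and 38.0 CPM with DMSO. The groups were far apart, and the 2.15-fold difference was the largest among the members (log2 fold change -1.10, SE 0.065, adjusted p = 4.9e-06 in edgeR). This change was larger in size than that of 91.5% of tested genes. Exons of the non-coding gene Gm11110 on the opposite strand overlap 192 bases (14.9%) of Tnfsf9, and whether counting used strand is not known. Gm11110, looked at because of this overlap, moved the other way, with 4.76 ± 0.378 CPM with the inhibitor and 1.96 ± 0.339 CPM with DMSO (SD, n = 3 each; adjusted p = 0.000375 in edgeR).

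Tnfsf12 (ENSMUSG00000097328; chromosome 11, 69686250 to 69695849, minus strand) encodes TWEAK, a ligand made mainly by monocytes and macrophages. Its level was 71.0, 65.1 and 58.5 CPM with the inhibitor and 38.6, 41.8 and 40.6 CPM with DMSO, without overlap. Tnfsf12 rose 1.61-fold (log2 fold change 0.68, SE 0.076, adjusted p = 0.000157 in edgeR). The readthrough gene Tnfsfm13 joins Tnfsf12 to its neighbour Tnfsf13, which lies 465 bases away, and shares 48.3% of the exon bases of Tnfsf12, so that reads of the 3 genes could be divided among them. Tnfsfm13 also rose, with 52.6 ± 5.98 CPM with the inhibitor and 41.7 ± 2.27 CPM with DMSO (adjusted p = 0.0139 in edgeR). Tnfsf13, the ligand APRIL, which shares 60% of its exon bases with Tnfsfm13, fell to 9.53 ± 1.3 CPM with the inhibitor, against 15.5 ± 2.18 CPM with DMSO (SD, n = 3 each; adjusted p = 0.003 in edgeR).

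The last 2 ligands were near the limit of detection. Ltb, which encodes lymphotoxin beta, had 11, 12 and 3 counts with the inhibitor and 8, 9 and 6 counts with DMSO. Tnfsf13b, which encodes the B cell survival factor BAFF, had 28, 9 and 11 counts with the inhibitor and 12, 8 and 9 counts with DMSO. For both, the groups overlapped and the 95% intervals of the log2 fold change were wide, -1.23 to 1.12 for Ltb and -0.68 to 1.63 for Tnfsf13b. The estimate for Tnfsf13b, 0.48, became -0.16 without inhibitor replicate 1, the library with 28 counts.

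**Figure D2:**
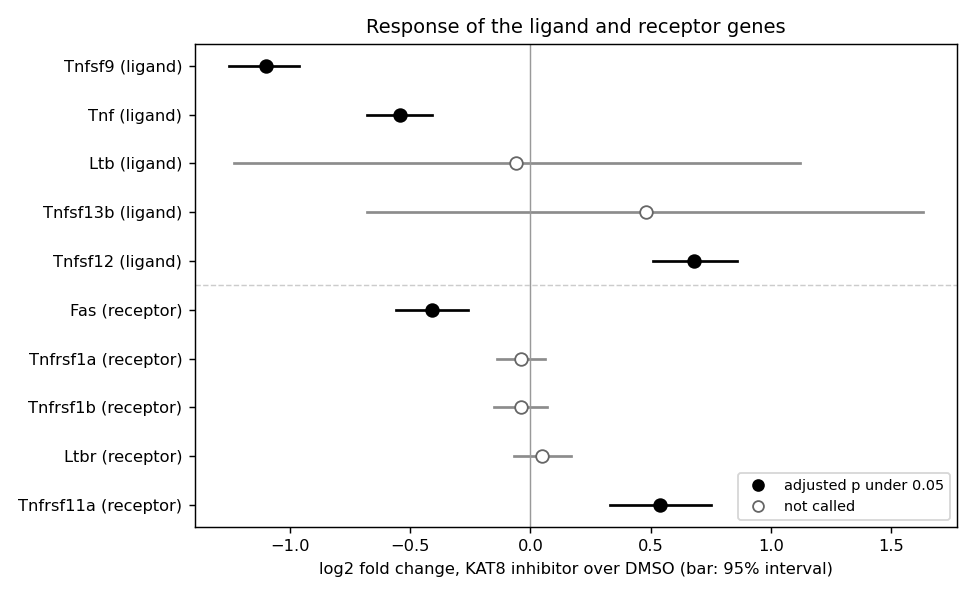
Log2 fold change of each member, inhibitor over DMSO, with its 95% interval; ligands are above the dashed line and receptors below it, and filled points have an adjusted p under 0.05. Tnfsf9, Tnf and Fas lie to the left of 0 and Tnfsf12 and Tnfrsf11a to the right, while the intervals of Tnfrsf1a, Tnfrsf1b and Ltbr are narrow and include 0.

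Both TNF receptor genes had nearly equal levels in the 2 groups. Tnfrsf1a (ENSMUSG00000030341; chromosome 6, 125349362 to 125362484, plus strand) encodes TNFR1, a death domain receptor found on most cells. Its level was 151, 152 and 152 CPM with the inhibitor and 149, 161 and 158 CPM with DMSO, and the groups overlapped. The log2 fold change of Tnfrsf1a was -0.04 (95% interval -0.14 to 0.06, adjusted p = 0.467 in edgeR). With TMM scaling this interval leaves out changes beyond 0.907-fold and 1.04-fold, whereas with library totals the log2 fold change was 0.07.

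Tnfrsf1b (ENSMUSG00000028599; chromosome 4, 145213463 to 145246870, minus strand) encodes TNFR2, which lacks a death domain and binds TRAF2. Its level was 3435, 3420 and 3254 CPM with the inhibitor and 3327, 3577 and 3512 CPM with DMSO. These values overlapped too, with a log2 fold change of -0.04 (95% interval -0.15 to 0.07, adjusted p = 0.482 in edgeR). Tnfrsf1b was the 34th most abundant tested mRNA per kb of exon. Within a library, TNFR2 mRNA exceeded TNFR1 mRNA per kb by 15.1 ± 0.5 times with the inhibitor and by 15.1 ± 0.0643 times with DMSO (SD, n = 3 each; exact permutation test, two-sided p = 1).

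Tnf mRNA per kb was 25.1 ± 1.5 times that of Tnfrsf1a with the inhibitor and 35.5 ± 0.974 times with DMSO. Set against Tnfrsf1b, it was 1.66 ± 0.121 times with the inhibitor and 2.35 ± 0.0671 times with DMSO (SD, n = 3 each). These within-library ratios do not depend on how libraries were scaled. Neither ratio overlapped between the groups, and each exact permutation test gave a two-sided p = 0.1, the smallest that 3 libraries against 3 allow. In all, 4 ratios between members and partners were tested in this way.

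Ltbr (ENSMUSG00000030339; chromosome 6, 125306571 to 125313885, minus strand) encodes the lymphotoxin beta receptor, which acts through TRAF3 and the alternative NF-kB pathway, and lies 35.5 kb from Tnfrsf1a. It had 113, 113 and 107 CPM with the inhibitor and 100, 110 and 111 CPM with DMSO, and the groups overlapped (log2 fold change 0.05, 95% interval -0.07 to 0.17, adjusted p = 0.449 in edgeR). With library totals in place of TMM, which moved the median of all genes to 0.12, Ltbr passed at 0.16 (adjusted p = 0.0187 in edgeR). It also passed with trends in GC content and exon length removed (0.17, adjusted p = 0.0144 in edgeR).

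Fas (ENSMUSG00000024778; chromosome 19, 34290666 to 34327772, plus strand) encodes CD95, a death receptor that recruits FADD and caspase-8. It had 34.5, 31.8 and 33.2 CPM with the inhibitor and 46.7, 44.2 and 41.3 CPM with DMSO. Every inhibitor value lay below every DMSO value, and Fas fell 1.33-fold (log2 fold change -0.41, SE 0.066, adjusted p = 0.00115 in edgeR). Its ligand Fasl had 1 count in all 6 libraries together, in inhibitor replicate 2.

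Tnfrsf11a (ENSMUSG00000026321; chromosome 1, 105780718 to 105847981, plus strand) encodes RANK and was the receptor member that rose. Levels of Tnfrsf11a were 25, 25 and 20.8 CPM with the inhibitor and 15.6, 17.2 and 16.0 CPM with DMSO. The groups did not overlap, and the difference was 1.45-fold (log2 fold change 0.54, SE 0.092, adjusted p = 0.00156 in edgeR). Per kb of exon Tnfrsf11a was the lowest of the 5 receptors, at 3.95 ± 0.402 CPM with the inhibitor and 2.72 ± 0.138 CPM with DMSO. Fas followed at 16.1 ± 0.639 and 21.4 ± 1.31 CPM, then Ltbr at 47.1 ± 1.52 and 45.4 ± 2.56 CPM and Tnfrsf1a at 58.6 ± 0.369 and 60.2 ± 2.5 CPM, with Tnfrsf1b at the top at 883 ± 26.3 and 909 ± 33.9 CPM (SD, n = 3 each, inhibitor first). Neighbours in this order were separated by more than their spread in both groups.

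Genes around RANK moved in different directions. Tnfsf11, the RANK ligand, fell to 0.798 ± 0.0502 CPM with the inhibitor, against 2.69 ± 0.284 CPM with DMSO (SD, n = 3 each; adjusted p = 0.000145 in edgeR). Tnfrsf11b encodes osteoprotegerin, a soluble decoy that binds RANK ligand. It had 1.39, 0.839 and 1.74 CPM with the inhibitor and 8.73, 8.5 and 7.63 CPM with DMSO, and fell 6.25-fold (log2 fold change -2.64, SE 0.22, adjusted p = 2.93e-05 in edgeR). RANK ligand and osteoprotegerin are known products of stromal cells, and stromal markers summed to less in the inhibitor libraries (2019 to 2153 CPM with the inhibitor and 4520 to 5328 CPM with DMSO). Not all stromal markers fell, and Pdgfra had 442 ± 20.5 CPM with the inhibitor and 418 ± 30.3 CPM with DMSO (SD, n = 3 each). The part of stromal cells in the falls of Tnfsf11 and Tnfrsf11b was not tested.

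Of 10 osteoclast genes that RANK signalling is known to induce, 8 were tested, of which 2 rose and 3 fell (62.5% called, against 51.5% of all tested genes; median log2 fold change -0.11). Itgb3, the beta 3 integrin subunit through which osteoclasts attach to bone, rose to 53.3 ± 2.46 CPM with the inhibitor, against 21.9 ± 0.799 CPM with DMSO (SD, n = 3 each). The other gene that rose was Ocstamp, a cell fusion protein, named after its values were seen, with 1.19, 1.12 and 0.913 CPM with the inhibitor and 0.11, 0.173 and 0.174 CPM with DMSO. The falls were those of the secreted enzymes Mmp9 (38.5 ± 0.154 and 103 ± 3.78 CPM, inhibitor and DMSO), Ctsk (110 ± 3.21 and 187 ± 10.6 CPM) and Acp5 (368 ± 11.1 and 629 ± 59.6 CPM; SD, n = 3 each). Nfatc1, the master transcription factor of osteoclasts, did not pass, at 23.8 ± 1.06 CPM with the inhibitor and 21.2 ± 1.33 CPM with DMSO. Stromal markers were lower in sum with the inhibitor, though not all fell, as given above. Which cells held the mRNAs of these osteoclast genes was not tested, nor was the part of RANK in their changes.

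**Figure D3:**
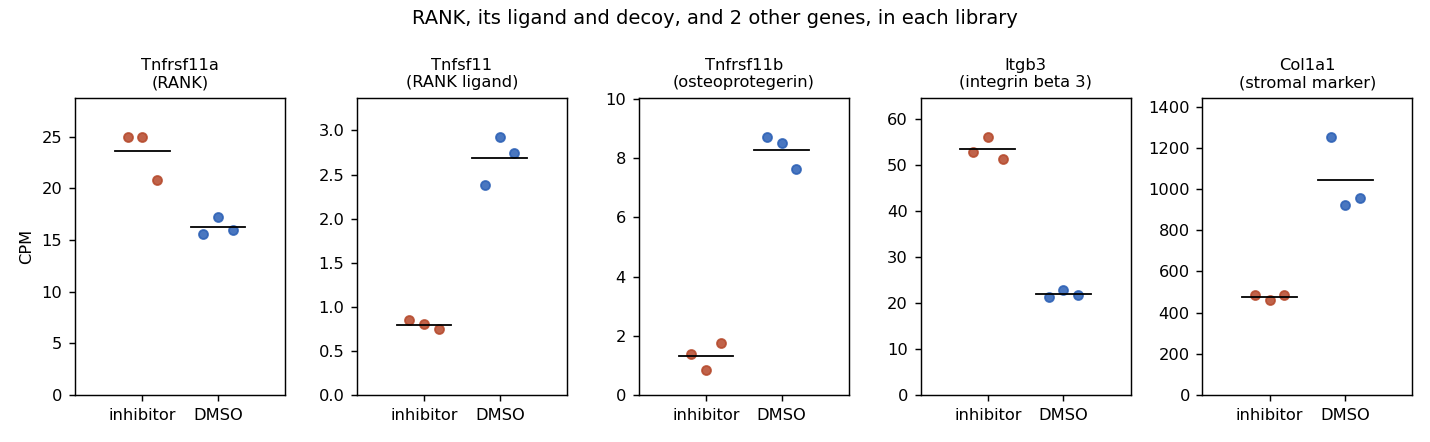
CPM in each library for RANK (Tnfrsf11a), RANK ligand (Tnfsf11), osteoprotegerin (Tnfrsf11b), Itgb3 and the stromal marker Col1a1; points are libraries, lines the mean of 3, and each axis starts at 0. Tnfrsf11a and Itgb3 are higher with the inhibitor, and Tnfsf11, Tnfrsf11b and Col1a1 are lower, with no overlap in any panel.

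Other ligands of the superfamily were mostly at low levels. Of 13 listed, 7 passed the filter, 4 fell and 1 rose (71.4% of those tested called, against 51.5% of all tested genes; median log2 fold change -0.70). Tnfsf15 encodes TL1A, a ligand of the death receptor DR3. It had 2.54, 2.48 and 2.66 CPM with the inhibitor and 11.9, 13.6 and 13.7 CPM with DMSO, a fall of 2.35 on the log2 scale (SE 0.11, adjusted p = 1.72e-06 in edgeR). Lta, which encodes lymphotoxin alpha and lies 1157 bases upstream of Tnf, had 20, 8 and 13 counts with the inhibitor and 23, 28 and 21 counts with DMSO. Lta passed the test (log2 fold change -1.04, adjusted p = 0.0334 in edgeR), as did Tnf, whereas Ltb, 3060 bases from Tnf on its other side, did not. The call of Lta was lost without DMSO replicates 1 or 2 or inhibitor replicates 2 or 3 (adjusted p = 0.0816 to 0.0995 in edgeR) and with DESeq2 (0.0597). Tnfsf4, the OX40 ligand, named after its values were seen, was the gene that rose, at 0.732, 1.04 and 1.74 CPM with the inhibitor and 0.0552, 0.604 and 0.218 CPM with DMSO. Tnfsf4 passed the test (adjusted p = 0.0273 in edgeR) on low counts, 19, 26 and 42 with the inhibitor and 1, 14 and 5 with DMSO. Its call was lost without DMSO replicates 1 or 3 or inhibitor replicates 2 or 3, and at an adjusted p under 0.01.

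Among 23 further receptors, 17 were tested, of which 6 rose and 7 fell (76.5% called, against 51.5% of all tested genes; median log2 fold change -0.22). Tnfrsf26 lies on chromosome 7, as do its relatives Tnfrsf22 and Tnfrsf23, decoy receptors for the ligand TRAIL, which were named after their values were seen. All 3 rose. Tnfrsf26 had 17.9, 20.3 and 20.8 CPM with the inhibitor and 9.39, 9.62 and 8.37 CPM with DMSO (log2 fold change 1.11, SE 0.095, adjusted p = 3.75e-05 in edgeR). The log2 fold changes of Tnfrsf22 and Tnfrsf23 were 0.81 and 0.69. The 3 genes are similar in sequence, and it is not known how reads that fit more than 1 of them were assigned. Tnfrsf14, the herpesvirus entry mediator, which binds the ligand LIGHT, fell to 17.9 ± 1.05 CPM with the inhibitor, against 35.3 ± 3.23 CPM with DMSO (SD, n = 3 each). Cd40, the costimulatory receptor of antigen-presenting cells, was not called, with 119, 127 and 118 CPM with the inhibitor and 83.6, 129 and 121 CPM with DMSO, where replicate 1 was low.

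Tnfrsf12a encodes FN14, the receptor for TWEAK. Its level was 41.6, 43.1 and 42.7 CPM with the inhibitor and 54.9, 50.7 and 46.6 CPM with DMSO, so that the receptor fell (log2 fold change -0.26, adjusted p = 0.0138 in edgeR) while Tnfsf12 rose. This call was lost with library totals (-0.15, adjusted p = 0.125 in edgeR) and with GC and length trends removed (-0.14, adjusted p = 0.146). Per kb, Tnfsf12 mRNA was 1.95 ± 0.216 times that of Tnfrsf12a with the inhibitor and 1.02 ± 0.111 times with DMSO (SD, n = 3 each). The ratios did not overlap, with a two-sided exact permutation p = 0.1, the smallest possible. Summed stromal markers were lower in these bulk samples with the inhibitor (2019 to 2153 CPM, against 4520 to 5328 CPM with DMSO). Of the 9 markers 7 were lower and 2 were not called. Which cells held the Tnfrsf12a and Tnfsf12 mRNA, and the part of stromal cells in the fall of Tnfrsf12a, was not tested.

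**Figure D4:**
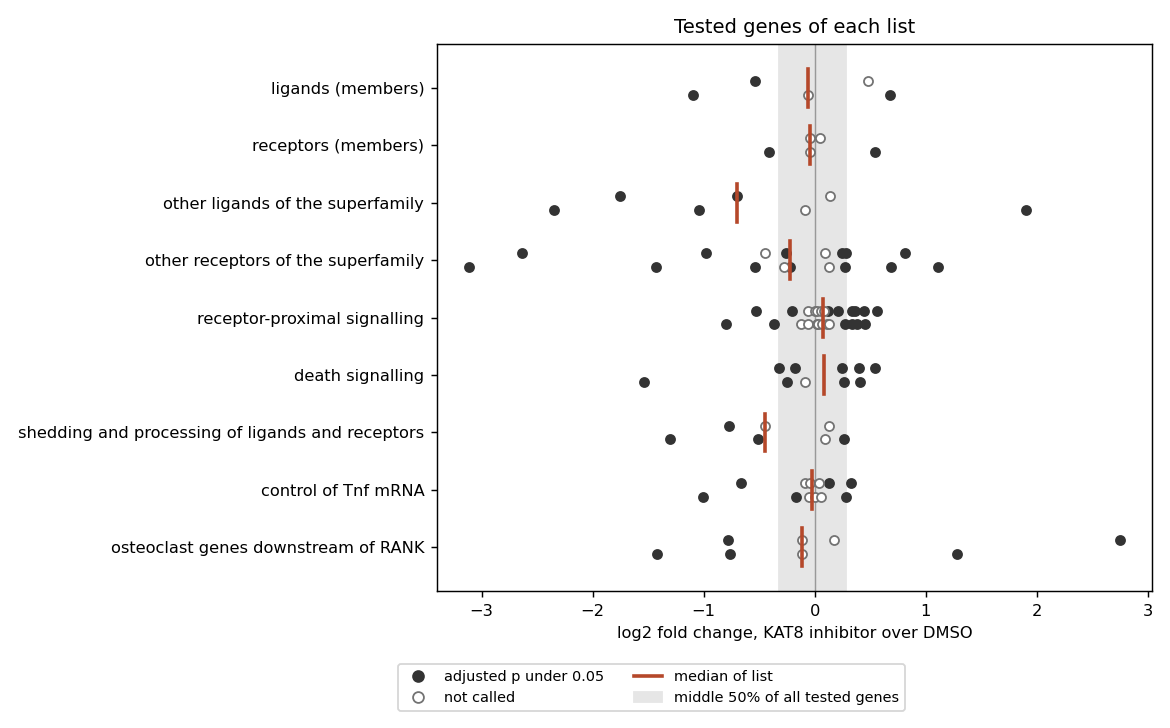
Log2 fold change of every tested gene of each list, inhibitor over DMSO; filled points have an adjusted p under 0.05, the red line is the median of the list and the grey band holds the middle 50% of all tested genes (-0.32 to 0.28). Several other ligands and receptors lie beyond -1, whereas most of the receptor-proximal signalling genes lie within 0.5 of 0.

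Signalling genes next to the receptors moved in both directions. Of 26 tested, 10 rose and 4 fell (53.8% called, against 51.5% of all tested genes), with a median log2 fold change of 0.07 and a range of -0.80 to 0.56. Traf4 fell to 19.7 ± 1.67 CPM with the inhibitor, against 34.3 ± 0.903 CPM with DMSO. Ikbkg, which encodes NEMO, the regulatory subunit of the IkB kinase complex, fell to 52.5 ± 0.287 CPM, against 75.8 ± 5.43 CPM with DMSO. Traf6, a ubiquitin ligase used by RANK and by Toll-like receptors, rose to 67.9 ± 2.55 CPM with the inhibitor, against 49.7 ± 2.24 CPM with DMSO (SD, n = 3 each). The most abundant gene of the list per kb, Tnip1, which encodes a partner of the deubiquitinase A20, was not called (436 ± 7.31 and 404 ± 15.4 CPM, inhibitor and DMSO). Tradd and Ripk1, the adaptor and kinase that join TNFR1, were not called either, with log2 fold changes of -0.06 and 0.02.

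Of 10 death signalling genes 5 rose and 4 fell (90% called, against 51.5% of all tested genes; median log2 fold change 0.08), and with library totals 2 fell. The absolute log2 fold change of the 10 genes had a median of 0.29, beside 0.30 for all tested genes, so their changes were of ordinary size. Ripk3 and Mlkl, the kinase and the pore-forming effector of necroptosis, rose 1.45-fold and 1.33-fold. Ripk3 had 50.1, 54.5 and 51.3 CPM with the inhibitor and 34.6, 36.1 and 36.5 CPM with DMSO, and Mlkl had 63.7, 64.6 and 65.2 CPM with the inhibitor and 49.6, 49.4 and 46.7 CPM with DMSO. Bid, which carries the death receptor signal to mitochondria, rose to 93.1 ± 2.27 CPM with the inhibitor, against 70.5 ± 3.7 CPM with DMSO (SD, n = 3 each). Exons of Bid overlap Bcl2l13 on the opposite strand over 17.7% of their length. Cflar, the inhibitor of caspase-8 activation and the most abundant gene of the list per kb, fell 1.13-fold, a call lost with library totals (adjusted p = 0.15 in edgeR) and with GC and length trends removed (0.143). Xiap, one of the 4 that fell, had 97.2, 27.2 and 96.4 CPM with DMSO, and its DMSO replicate 2 lay among the inhibitor values of 22.7, 28.8 and 24.6 CPM.

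Shedding and processing genes included 3 that fell and 1 that rose, of 7 tested (57.1% called, near the 51.5% of all tested genes; median log2 fold change -0.45). With library totals or with GC and length trends removed, 2 rose. Adam17, the protease that releases TNF and its receptors, had 264, 424 and 436 CPM with the inhibitor and 351, 579 and 601 CPM with DMSO, and the groups overlapped (adjusted p = 0.146 in edgeR). Without DMSO replicate 1 it was called (-0.66, adjusted p = 0.0273). Timp3, an inhibitor of ADAM17, fell to 202 ± 15.7 CPM with the inhibitor, against 497 ± 41.9 CPM with DMSO, and its exons overlap Syn3 on the opposite strand over 21.3% of their length. The ADAM17 partner Rhbdf1 fell 1.71-fold and Frmd8, which keeps the complex at the cell surface, rose 1.19-fold. Stromal cells also make Timp3, and the summed stromal markers were lower in the inhibitor libraries (2019 to 2153 CPM, against 4520 to 5328 CPM with DMSO). The stromal markers Pdgfra and Lum were not called. The part of stromal cells in the fall of Timp3 was not tested.

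Of 12 genes that control Tnf mRNA 3 rose and 3 fell (50% called, near the 51.5% of all tested genes; median log2 fold change -0.02). Zfp36 encodes tristetraprolin, which binds the nonamers printed above and speeds the decay of Tnf mRNA. It had 89.6, 96.1 and 89.9 CPM with the inhibitor and 73.9, 74.3 and 71.7 CPM with DMSO, and rose 1.25-fold (adjusted p = 0.000586 in edgeR). Its relative Zfp36l1 fell 2.02-fold, to 42.2 ± 0.998 CPM with the inhibitor, against 85.1 ± 3.52 CPM with DMSO. The non-coding gene Gm26669 overlaps 55.9% of its exon bases on the opposite strand, and reads of the pair could not be told apart if counting ignored strand. Litaf, named for its proposed role in the transcription of TNF, fell 1.58-fold, to 440 ± 18.1 CPM, against 697 ± 45.1 CPM with DMSO (SD, n = 3 each). Mapkapk2, the kinase that restrains tristetraprolin, rose 1.09-fold (1187 ± 11.9 and 1084 ± 45.4 CPM, inhibitor and DMSO), and this call was lost with DESeq2 (adjusted p = 0.0515) and without any of 5 of the libraries (adjusted p = 0.053 to 0.11 in edgeR). Levels of the mRNAs alone do not show how long Tnf mRNA lived.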

How the data were processed

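mRNA captured on beads was sequenced in 6 libraries, per the labels' protocols. The authors deposited raw read counts per Ensembl gene. The build mm10 and the tools HISAT2, StringTie 1.3.0 and edgeR are listed without roles, per the submitters' processing notes. How reads were counted, on which annotation and with strand or not is not given in the sources used here.

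Symbols were matched by Ensembl identifier, and coordinates and exon lengths come from GENCODE M21, a GRCm38 (mm10) annotation. Counts were fitted in R 4.3.3 with edgeR 4.0.16 (quasi-likelihood test, TMM, filterByExpr with a minimum count of 10, no covariate), adjusted by Benjamini-Hochberg over 13815 genes. Standard errors are the size of the log2 fold change divided by the square root of F. Levels are CPM, or CPM per kb of merged exons. DESeq2 1.42.0 was an alternative, with scaling, filters, a replicate block, an adjusted p under 0.01, GC and length trends, and each library left out. Within groups, chi-square per degree of freedom between libraries was 8.77 to 13.5, so none was a copy. The procedure was tested on simulated data, in which far fewer genes changed than were called here. It recovered 52.2% of 67 genes changed 1.5-fold, 98.5% of 65 changed 2-fold and 98.5% of 68 changed 4-fold. Of 183 calls, 17 were of unchanged genes. Small changes can thus be missed, and some calls can be of unchanged genes. Whether replicates were separate animals or cultures is not stated. The p-values therefore measure only how these libraries vary, which may be technical.

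Members and lists were chosen with earlier results of these data known. Besides the members, the text names the 3 smallest p and the most abundant gene of each list, 6 partners of members (Tnfrsf12a, Tnfsf11, Tnfrsf11b, Fasl, Cd40 and Lta), and markers. Other genes were named after their values were seen.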

Additional observations from a re-analysis of the deposited data

How the results depend on the processing

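Tnf, Tnfsf9, Tnfsf12, Fas and Tnfrsf11a kept their direction and their call in all 14 alternatives. Their log2 fold changes ranged from -0.59 to -0.43, -1.14 to -1.0, 0.62 to 0.81, -0.46 to -0.3 and 0.5 to 0.65. Members that were not called changed sign in some: Ltb was 0.05 with library totals, 0.09 with GC and length trends removed, and 0.08, 0.00 and 0.32 without DMSO replicate 1, DMSO replicate 2 and inhibitor replicate 3. Tnfsf13b was -0.16 without inhibitor replicate 1. Tnfrsf1a and Tnfrsf1b were both 0.07 with library totals, and 0.04 and 0.01 with trends removed. Without DMSO replicate 1, Ltbr was 0.00 and Cd40 -0.05. Receptors that rose numbered 2 with library totals and with trends removed. The cause was not tested. Library totals moved the median of all genes to 0.12, against 0.01. At an adjusted p under 0.01, 2257 genes were higher, against 3446.

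With each library left out in turn, values ranged from -0.02 to 0.02 for the log2 difference in the ratio of Tnfrsf1b to Tnfrsf1a (reported as 0.00), from -0.36 to 0.32 for Ltb, -0.16 to 0.77 for Tnfsf13b and -0.05 to 0.24 for Cd40. Same-numbered libraries did not deviate together (r = -0.039, -0.002 and 0.024), so the numbers were not taken to pair them. With the replicate block no member changed its call and 3215 genes were higher and 3510 lower, and Adam17 was called at -0.44 (adjusted p = 0.000405 in edgeR). Of 196 counts of list members under the alternatives, 15 differed by more than 1.5 times from those reported. Low counts limit Ltb, Tnfsf13b, Lta and Tnfsf4.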
